A study of Mus musculus with 4 samples.

Results

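The isolated distal peaks of H3K27ac in mouse cerebral cortex are regions that stand alone in 1 peak list. No second peak of that list lies within 50 kb of them, and no gene start of the annotation used lies beneath them. They were chosen by position, on the peaks of a replicated list made from 2 pools. An autosomal peak was a member when no other peak of that list lay within 50 kb on either side, and when it did not overlap the 1 kb on either side of a transcription start site (TSS) of a coding or long non-coding gene (GENCODE vM21 basic annotation, mm10). The rule found 1777 members among 72027 peaks, which is 2.47% of the list and 3.43% of the 51786 autosomal distal peaks. All 4 samples are left cerebral cortex from adult B6CASTF1/J females 2 months old, an F1 cross of C57BL/6J and CAST/EiJ. They form 1 group of 2 pools, I and J, each made from 4 cortex biosamples and sequenced as 2 technical libraries. No treatment, second genotype or other tissue was included, so the members were described and no contrast was tested.

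H3K27ac is the acetylation of lysine 27 of histone H3, placed by the acetyltransferases CBP and p300. It marks active promoters and active enhancers, the distal elements that raise transcription of genes in cis. Enhancers of genes that define a cell type often stand in dense groups, known as super-enhancers or stretch enhancers, while other enhancers work alone at long range through chromatin loops. A lone distal peak can therefore be a single enhancer, a promoter that the annotation does not hold, or weak enrichment at the limit of detection, and peak lists by themselves do not separate these. The nearest gene names a neighbour and not a target.

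A few members are printed as sequence because they show the range of the class. They are the 8 with the highest signal that were found in the list of each pool and overlapped no exon, with 1 chromosome left aside, and the 2 found in both pools that lay farthest from any other peak, a choice made after the values were seen. Each line gives 200 bp around the summit, the point of highest enrichment, from the plus strand of mm10, written 5′ to 3′ and named by the coding gene with the nearest TSS. Capitals mark matches to any of 22 short motifs of transcription factors searched on both strands, and a line with no capitals holds none of these letter strings.
Gap43, chr16:42190508-42190707: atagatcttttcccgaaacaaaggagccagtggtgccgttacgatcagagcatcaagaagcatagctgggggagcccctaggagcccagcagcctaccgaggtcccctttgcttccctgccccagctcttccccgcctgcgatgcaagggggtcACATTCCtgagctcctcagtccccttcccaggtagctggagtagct
BC005561, chr5:104571351-104571550: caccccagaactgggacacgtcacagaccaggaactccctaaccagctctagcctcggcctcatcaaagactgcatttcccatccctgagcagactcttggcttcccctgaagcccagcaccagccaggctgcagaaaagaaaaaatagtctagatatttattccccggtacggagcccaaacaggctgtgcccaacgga
Zfp947, chr17:22081001-22081200: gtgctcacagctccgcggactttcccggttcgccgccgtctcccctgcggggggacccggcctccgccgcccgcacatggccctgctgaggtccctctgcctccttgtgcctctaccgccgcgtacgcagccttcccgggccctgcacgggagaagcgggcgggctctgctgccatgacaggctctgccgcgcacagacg
Has3, chr8:106839604-106839803: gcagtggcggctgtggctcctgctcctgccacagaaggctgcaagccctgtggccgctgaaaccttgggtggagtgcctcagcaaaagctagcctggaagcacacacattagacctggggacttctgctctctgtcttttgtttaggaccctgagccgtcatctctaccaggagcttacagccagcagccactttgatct
Lipi, chr16:75092749-75092948: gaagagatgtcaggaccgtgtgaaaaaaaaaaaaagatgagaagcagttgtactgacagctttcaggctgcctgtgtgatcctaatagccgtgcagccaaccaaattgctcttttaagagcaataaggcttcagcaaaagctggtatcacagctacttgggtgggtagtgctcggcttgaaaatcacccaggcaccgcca
Anks1b, chr10:90432563-90432762: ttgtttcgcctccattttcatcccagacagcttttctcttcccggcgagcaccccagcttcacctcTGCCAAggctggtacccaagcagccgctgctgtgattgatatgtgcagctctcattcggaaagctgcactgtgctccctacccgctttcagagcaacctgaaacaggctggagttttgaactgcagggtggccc
Nmur2, chr11:56072383-56072582: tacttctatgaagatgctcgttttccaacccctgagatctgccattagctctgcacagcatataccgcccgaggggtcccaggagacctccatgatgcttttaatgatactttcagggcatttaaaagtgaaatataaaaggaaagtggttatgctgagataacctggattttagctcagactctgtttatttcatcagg
Armc3, chr2:19276186-19276385: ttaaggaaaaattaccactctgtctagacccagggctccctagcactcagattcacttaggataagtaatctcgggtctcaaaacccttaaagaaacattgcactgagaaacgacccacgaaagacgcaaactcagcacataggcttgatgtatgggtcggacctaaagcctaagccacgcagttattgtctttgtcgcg
Pcdh17, chr14:83247212-83247411: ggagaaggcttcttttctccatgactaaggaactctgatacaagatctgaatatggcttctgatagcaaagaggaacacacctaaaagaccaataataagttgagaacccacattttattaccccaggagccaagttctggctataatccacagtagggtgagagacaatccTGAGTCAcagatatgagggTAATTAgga
Cdh9, chr15:15559703-15559902: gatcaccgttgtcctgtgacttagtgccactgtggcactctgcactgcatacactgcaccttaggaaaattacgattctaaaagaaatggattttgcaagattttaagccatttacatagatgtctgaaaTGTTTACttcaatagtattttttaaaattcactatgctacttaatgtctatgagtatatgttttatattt

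The lines differ widely in base composition. The window near Zfp947, a zinc finger gene, had 73.0% GC and 22 CpG dinucleotides, which is the makeup of a CpG island. By contrast, the window named for Cdh9, a cadherin gene 1169 kb away, had 33.0% GC and 2 CpG. Of the 8 lines printed for high signal, 6 held none of the motifs. The window near Gap43 held 1 TEAD match (GGAATGT, read on the minus strand) and that near Anks1b held 1 NFI half-site (TTGGCA, minus strand). The window far from Pcdh17 held an AP-1 match (TGACTCA) and a homeobox match (TAATTA), and that far from Cdh9 a forkhead match (TGTTTAC).

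The members differed widely in how isolated they were. Their nearest other peak lay at distances from just over 50 kb to 1195 kb, with a median of 86.9 kb. The stretch free of other peaks around a member had a median of 299 kb and reached 4668 kb, measured over the 1773 members with a peak on both sides. Most distal peaks were far more crowded. Of the 50009 other autosomal distal peaks, 32541 (65.1%) had a neighbour within 1 kb, and the median gap of all 50009, 0.376 kb, was smaller than their median width of 534 bp. The remaining 17468 had their nearest neighbour at over 1 kb and up to 50 kb, and they serve below as the closer comparison. For 540 members (30.4%) the nearest other peak was a promoter peak.

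**Figure D1:**
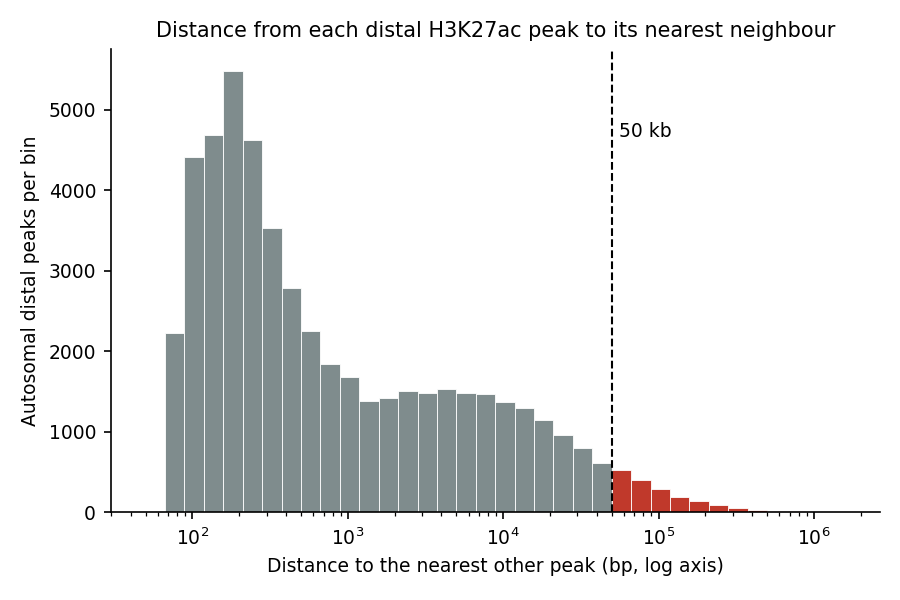
Histogram of the distance from each autosomal distal peak to the nearest other peak of the replicated list (x, bp, log axis) against the number of peaks per bin (y). Red bins to the right of the dashed 50 kb line hold the 1777 members, and grey bins the 50009 other distal peaks, 65.1% of which have a neighbour within 1 kb.

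The distance of 50 kb cut through a smooth tail. The 29 distal peaks with a nearest neighbour at 49 to 50 kb had signals from 2.28 to 5.86, with a median of 3.26, and were 409 bp wide in the median. The 31 members just inside the limit, at 50 to 51 kb, had signals from 2.12 to 6.26, with a median of 3.17, and were 499 bp wide in the median.

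The members were narrow and mostly weak, with a short tail of strong peaks. The signal of a peak is the authors' measure of its enrichment, in the unit of their peak caller. Groups of peaks were compared within 1 list. Where values of different lists are set side by side below, this is description only, since normalization and depth are unknown. In the replicated list the signal ran from 1.81 to 12.8 over the members. It had a median of 3.17 and a middle range from 2.75 to 3.77 between the 25th and 75th percentiles. Signal took only 409 distinct values over the 1777 members, and the value 2.87 alone was shared by 69. The other distal peaks had a median of 3.37, and those with a neighbour at over 1 kb had 3.17, the same as the members. The groups parted in the upper tail, where the 90th percentile was 4.66 for the members, 5.21 for peaks with a neighbour at over 1 kb and 5.66 for all other distal peaks. Signals over 6 were reached by 64 members (3.60%) and by 8.20% of the other distal peaks, whose highest was 34.2.

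Width showed a wider gap than signal. The members had a median width of 419 bp, against 473 bp for distal peaks with a neighbour at over 1 kb and 534 bp for all other distal peaks. Peaks of 1000 bp or more made up 11.6% of the members and 19.5% and 21.7% of those groups. The authors' −log10 q, where higher values mean stronger evidence for a peak, was at least 5 for 544 members (30.6%), against 33.8% and 42.7%. A q above 0.05 was listed for 103 members (5.80%), against 5.82% and 4.37%. The members thus had the median signal of the distal peaks with a neighbour at over 1 kb and nearly their share at a −log10 q of at least 5, but were narrower and had a shorter upper tail. From all other distal peaks they differed in each of these measures. The rule bears on width and signal, because a lone region called as several close peaks is left out. With peaks within 1 kb joined, an alternative chosen after seeing the data, 2387 peaks were isolated. Their median signal was 3.36 and their median width 559 bp, and both differences from other distal peaks kept their direction.

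**Figure D2:**
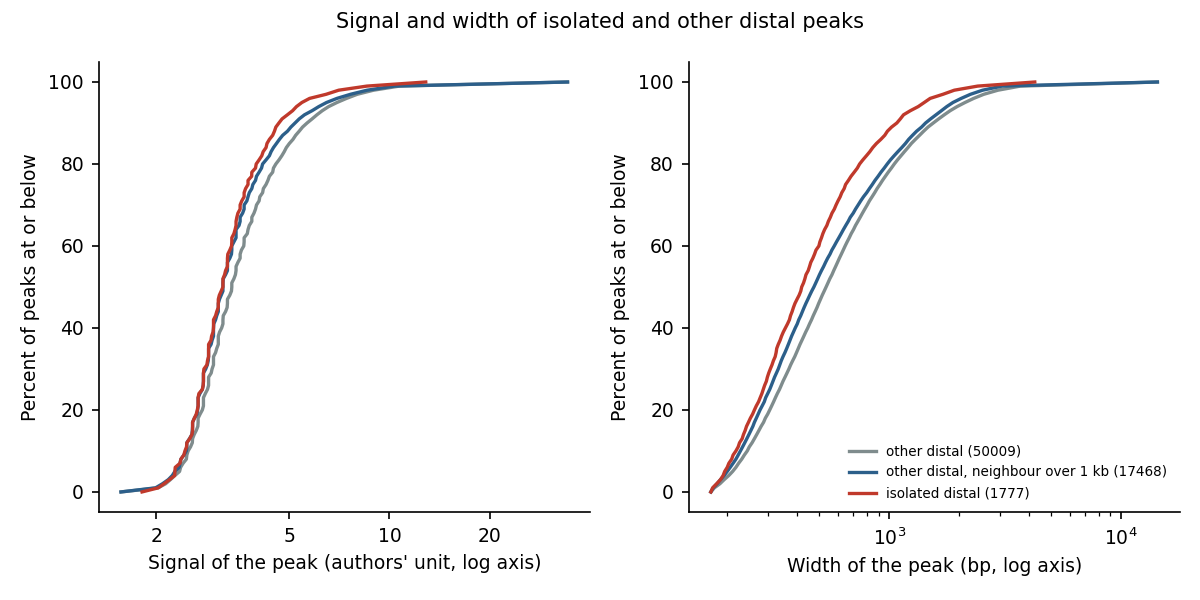
Cumulative curves of signal (left, authors' unit, log axis) and width (right, bp, log axis), with the percent of peaks at or below each value on y. The 1777 isolated peaks (red) have median values of 3.17 and 419 bp, and their curve leaves that of the 17468 distal peaks with a neighbour at over 1 kb (blue) in the upper part; all 50009 other distal peaks are in grey.

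The lists of the 2 pools showed how many members were also called in each pool alone. The replicated list was derived from the alignments of both pools, so the pools' lists are not independent of it. A larger share found at higher signal is therefore partly built in. Each pool has its own deposited list, and a member counted as found where it overlapped a peak of that list by at least 1 bp. Over all autosomal distal peaks, 46.2% were found in the lists of both pools. Of the members, 591 (33.3%, exact 95% binomial interval 31.1 to 35.5, for counting only) were found in both. Only pool I held another 602 (33.9%), only pool J 103 (5.80%), and 481 (27.1%) were in the list of neither. Distal peaks with a neighbour at over 1 kb were found in both pools for 38.5% and in neither for 24.8%. The share found followed the signal. Of the members with a signal of at most 2.5, 6.64% were found in both pools, of those from 3 to 4, 34.6%, of those from 4 to 6, 78.9%, and of those over 6, all 64. In the same classes the other distal peaks had 9.82%, 42.1%, 88.2% and 99.9%, each of the first 3 higher than the members' share; the difference was not tested. Members found in neither pool were the weakest and narrowest, with medians of 2.67 for signal and 257 bp for width, against 3.97 and 761 bp for those found in both.

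Pool I gave higher values than pool J at nearly every shared member. Over the 591 members found in both, pool I gave a median signal of 4.91 and pool J one of 3.53, and 536 members (90.7%) were higher in pool I. The median ratio of pool I to pool J was 1.40. The same held for the 23338 other distal peaks found in both, with 91.0% higher in pool I and a median ratio of 1.42, so this offset was not particular to the members. Across the 591 members the rank correlation of the pools was 0.572 and Pearson's r of the log2 signals was 0.658. These are descriptions over peaks of 2 lists, the peaks are not replicates, and each list's depth is unknown. With 1 list per pool, the difference between pools has no error of its own.

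**Figure D3:**
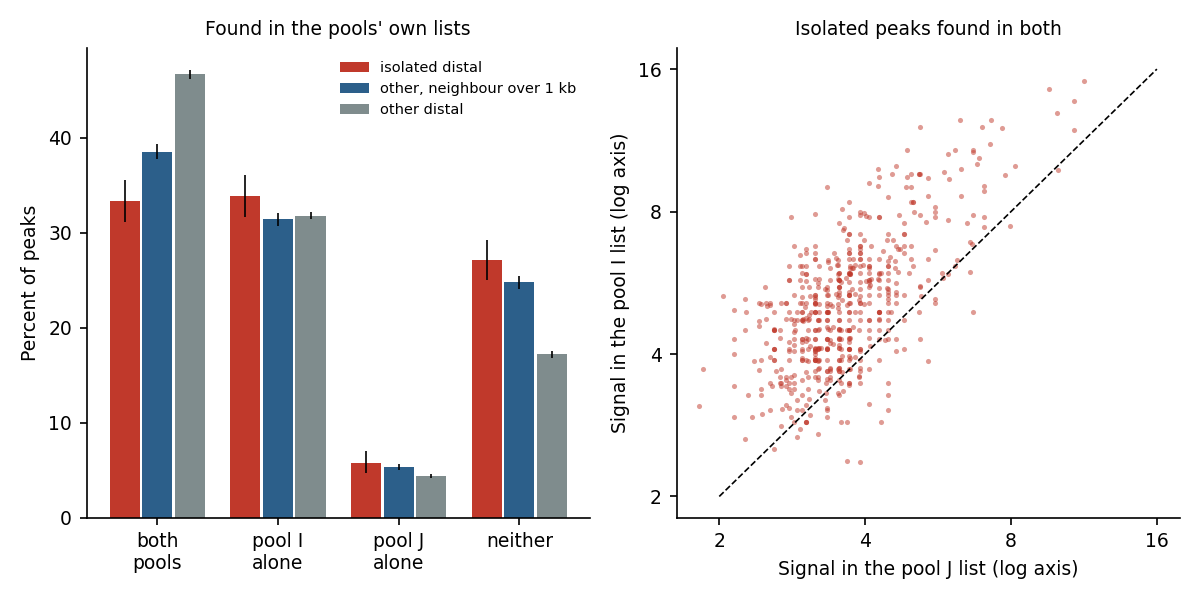
Left, percent of isolated peaks (red), of distal peaks with a neighbour at over 1 kb (blue) and of all other distal peaks (grey) found in the lists of both pools, 1 pool or neither, with exact 95% binomial intervals as bars; 33.3% of the isolated peaks were found in both. Right, signal of the 591 isolated peaks found in both, in pool J (x) and pool I (y), on log axes; 90.7% lie above the dashed line of equal values.

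Isolation itself depended on which list was searched. Of the members, 1740 (97.9%) had no peak of the pool J list within 50 kb other than one they overlapped, 1192 (67.1%) none of the pool I list and 1317 (74.1%) none of the pseudoreplicated list of both pools. All 3 lists left 1045 members (58.8%) isolated, and 346 of these (19.5% of all members) were also found in both pools. These 346 had signals from 1.99 to 12.3, with a median of 3.97, a median width of 731 bp and a median gap of 89.0 kb. Of them, 33.5% lay in introns and 59.0% between genes, and their summits had a median GC content of 46.5%.

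The strongest member lay on chromosome 16 at 42189985 to 42190879, with a signal of 12.8 in the replicated list, 15.1 in pool I and 11.3 in pool J. It stood 8.93 kb beyond the body of Lsamp, which encodes an adhesion protein of the limbic system, and 150 kb from the TSS of Gap43, a protein of growing axons. Its nearest other peak was 110 kb away, and its −log10 q of 54.7 was the highest of all members. The next, on chromosome 18 at 83313289 to 83315994, was 2706 bp wide and lay in an intron of the long non-coding gene 4921531P14Rik, 400 kb from the TSS of the zinc finger gene Zfp516. Its signals were 12.3 in the replicated list, 13.7 in pool I and 10.8 in pool J. Both peaks were thus strong in each pool and far from any coding TSS.

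Among the 12 members with the highest signal, every one was found in both pools, and pool I gave the higher value in all but 1. The exception, on chromosome 18 at 7692585 to 7693732 and 66.4 kb from Mpp7, a scaffold gene of cell junctions, had signals of 9.81 in pool I and 10.02 in pool J. Of these 12, 4 lay in introns by the annotation order used here (exon before intron), including 1 in Tango6 (chromosome 8, 106838729 to 106840592, signal 11.4) and 1 in Anks1b, a postsynaptic scaffold gene (chromosome 10, 90430731 to 90433232, signal 9.46). The intronic one in Armc3 (chromosome 2, 19276026 to 19276443), combined a signal of 9.42 with a width of only 418 bp, close to the median width of all members. The member at chromosome 16, 75090004 to 75093596, had a signal of 10.9 and a width of 3593 bp, which put it among the 6 widest as well. Lipi, a lipase gene 493 kb away, had the nearest coding TSS in the basic set, but RefSeq places a TSS of Robo2, an axon guidance receptor gene, within 1 kb of this peak. RefSeq also places one of Zfp33b at the member printed above for BC005561.

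The widest member measured 4242 bp and lay in an intron of Gab2, an adaptor gene of receptor signalling (chromosome 7, 97244421 to 97248662). Its signal was 7.26, with 10.03 in pool I and 4.64 in pool J. A peak of 3948 bp lay in an intron of Nrxn3, which encodes the presynaptic adhesion protein neurexin-3 (chromosome 12, 90140917 to 90144864), and it had nearly equal values of 7.44 in pool I and 7.98 in pool J. The third in width, at chromosome 6, 51847917 to 51851696, was 3780 bp wide but had a signal of only 2.78, with 5.53 in pool I and 5.19 in pool J. The other 3 of the 6 widest were the Robo2 peak above, one 94.5 kb from Pam, the gene of a peptide-amidating enzyme (3423 bp, signal 6.41), and one 1264 kb from Klhl29 (3353 bp, signal 5.21). Great width and high signal thus met in some members only.

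The 8 most remote members had their nearest other peak at 890 to 1195 kb. The most remote, at chromosome 14, 83247198 to 83247562, lay 1196 kb from the TSS of Pcdh17, a protocadherin gene whose promoter carried a peak. It was 365 bp wide, with signals of 5.57 in the replicated list, 5.92 in pool I and 4.93 in pool J. The one 1169 kb from Cdh9 had 3.27, 4.50 and 2.67. The members nearest to Gm10295 and to Aga, a lysosomal enzyme gene, had signals of 2.87 each and were found in neither pool. Those nearest to Csmd3 (2.36) and Fat3 (3.87) were found in pool I alone. Another of the 8 overlapped an exon of Lor, which encodes loricrin of the skin's outer layer (chromosome 3, 92080357 to 92082091). It had 71.5% GC, 15 CpG and signals of 8.66 in the replicated list, 10.03 in pool I and 8.16 in pool J, 2.29 kb from a TSS that carried no promoter peak. The most remote members therefore ranged from strong in both pools to found in neither.

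Median signal moved little with growing isolation, while the members' place in the genome changed more. Median signal was 3.17 for the 1043 members with a gap of 50 to 100 kb, 3.15 for 484 at 100 to 200 kb, 3.09 for 207 at 200 to 500 kb and 3.07 for 43 beyond. Over the same classes the share found in both pools was 33.8%, 34.7%, 29.5% and 20.9%. The intronic share went from 47.8% to 34.5%, 32.9% and 16.3%, and the median GC content of the summits from 45.5% to 45.2%, 43.0% and 42.0%. The last class held few peaks, so its shares are coarse.

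Most members lay between genes. Of the 1777, 931 (52.4%) were intergenic, 741 (41.7%) intronic and 105 (5.91%) overlapped an exon. Among distal peaks with a neighbour at over 1 kb the first 2 classes changed places, with 27.4% intergenic, 60.5% intronic and 12.1% exonic. The median distance to the nearest coding TSS was 135 kb for the members and 34.8 kb for that group, and 60.3% of the members against 21.9% lay over 100 kb from one. At over 500 kb the shares were 11.4% and 1.70%. Part of this follows from the rule, because any promoter peak within 50 kb disqualified a peak. Of the 285 members with a coding TSS at 50 kb or nearer, 48 (16.8%) had a nearest gene with a promoter peak at any of its TSSs, against 87.8% for other distal peaks at such distances. Beyond 50 kb, where the rule bears less on it, the nearest gene had a promoter peak for 1142 of 1492 members (76.5%), against 85.3% of other distal peaks.

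**Figure D4:**
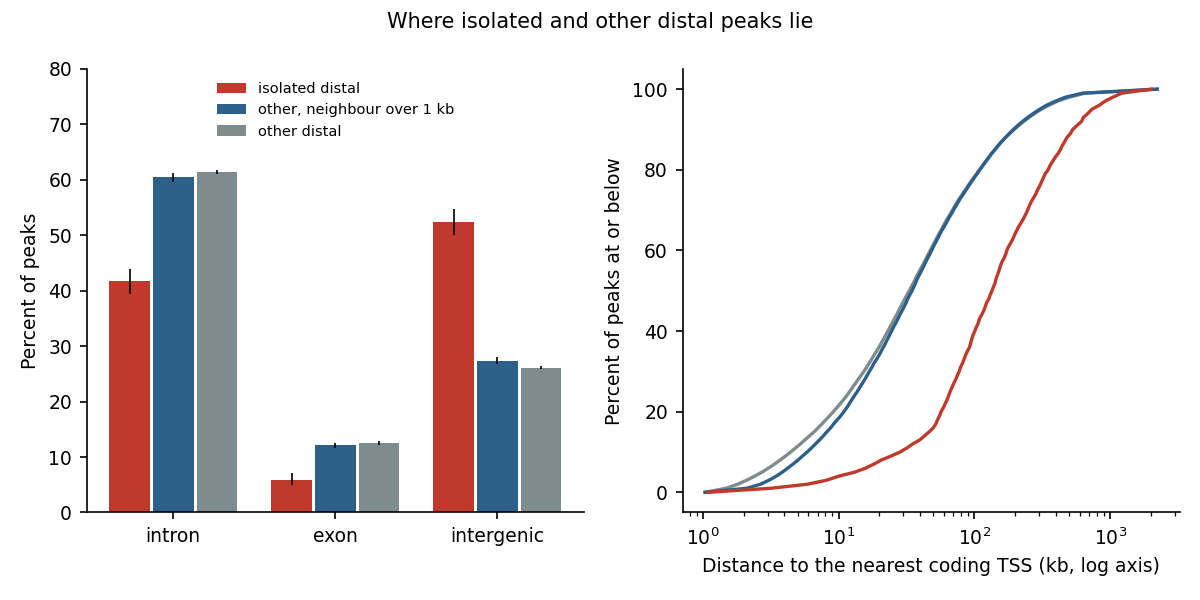
Left, percent of isolated peaks (red), of distal peaks with a neighbour at over 1 kb (blue) and of all other distal peaks (grey) in introns, exons and between genes, with exact 95% binomial intervals; 52.4% of the isolated peaks are intergenic. Right, cumulative percent of peaks by distance to the nearest coding TSS (kb, log axis), where the bend of the red curve at 50 kb marks where the rule stops excluding peaks near acetylated promoters.

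The members were spread over all 19 autosomes. Chromosome 10 had the highest density, with 118 members or 0.903 per Mb, and chromosome 7 the lowest, with 71 or 0.488 per Mb. As a share of each chromosome's distal peaks, they ranged from 2.01% on chromosome 11 to 5.34% on chromosome 3.

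Base composition set the members apart mainly through their surroundings. Their summits had a median GC content of 45.0% over 200 bp, against 49.0% for distal peaks with a neighbour at over 1 kb and 41.9% for the autosomes as a whole. The 25 kb on either side, without the 1 kb around the summit, had a median of 40.6% for the members and 44.7% for that group. The summits thus stood above their own surroundings by a similar amount, with a median of 3.85 percentage points for the members and 3.97 for the others. Soft-masked sequence, mostly repeats, filled a median of 30.2% of the members' surroundings, against 24.9%. In all, 52 members (2.93%) had at least 50% of the summit window masked, and 800 (45.0%) had no masked base there, near the 2.95% and 48.2% of distal peaks with a neighbour at over 1 kb. Reads from repeats align less uniquely, and what this did to the calls was not tested.

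A small set of the members was rich in CpG. In 60 members (3.38%) the 200 bp window held at least 10 CpG, close to the 3.25% of distal peaks with a neighbour at over 1 kb and with 1248 such windows among the 50009 other distal peaks. These had a median signal of 3.79 and were found in both pools for 38 (63.3%), while the other 1717 had 3.14 and 553 (32.2%). Fuller gene sets placed a TSS within 1 kb of 27 of the 60 (45.0%), either the complete GENCODE vM21 set with all gene types or RefSeq, against 106 of the 1717 (6.17%), and 33 of the 60 had none. Only 8 of the 60 (13.3%) lay at a coding or long non-coding TSS of the full GENCODE set. With all its gene types, pseudogenes included, it placed one at 20 (33.3%), and RefSeq did at 21 (35.0%). The 1248 other distal peaks with as many CpG had a median signal of 4.67, were found in both pools for 71.7% and lay at a TSS of either fuller set for 40.7%, so these traits were not particular to the members. Of these 1248, 23.6% lay at a coding or long non-coding TSS of the full GENCODE set. The 48 of these 60 found in pool I had signals up to 12.9, the value of the Zfp947 window printed above. Of the 8 with the highest signal, listed after their values were seen, the peak of the lncRNA gene G730013B05Rik (signal 9.24, 22 CpG) lay at a TSS in both fuller sets, and that of Crygn, a crystallin gene (9.48, 19 CpG), at one in the full GENCODE set. The peak with 18 CpG and a signal of 8.30, 100 kb from the Notch effector gene Hey1, lay at the RefSeq gene Gm52599. The peak 66.4 kb from Mpp7 (11.7, 25 CpG) lay at the pseudogene AC130218.1 of the full GENCODE set. That 36.5 kb from Gm5114 (7.37, 11 CpG) lay at its pseudogenes Gm5590 and Zfp939, of which RefSeq also holds Zfp939. Neither fuller set placed a TSS at the Zfp947, Lor or Shq1 peaks (22, 15 and 11 CpG). Altogether 133 members (7.48%) lay within 1 kb of a TSS of a fuller set, against 10.9% of the distal peaks with a neighbour at over 1 kb.

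Motif matches were counted in the 200 bp around the summits and, for reference, in windows of the same length 1000 to 1200 bp away on either side. A match is a string of letters and not a bound site. The E-box CAGCTG, the core recognised by several neuronal bHLH factors, was in 12.2% of the members' summit windows and 7.43% of their flanks. Over all autosomal distal summits it was in 13.5%. CAGATG, an E-box of NEUROD-type factors, was in 17.4% of summits and 14.6% of flanks, with 17.1% over all distal peaks. AAGGTCA, the half-site of ROR and other nuclear receptors, was in 5.01% of summits and 3.35% of flanks, with 4.86% over all. The NFI half-site TTGGCA was in 12.6% and 10.6%, with 11.5% over all. For these strings the members' summits thus held more than their own flanks and about as much as distal peaks in general.

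Other strings differed between the members and distal peaks in general. The homeobox core TAATTA was in 7.32% of the members' summits, against 4.21% of all distal summits, but also in 7.32% of the members' flanks. The MEF2 consensus, named after activity-dependent factors of neurons, was in 3.94% of summits against 2.20% over all, and in 5.12% of the flanks. In contrast, CAGGTG was in 11.0% of the members' summits against 15.7% over all, with 11.3% in the flanks. The differences were present away from the summits too, since the flanks of the other distal peaks held TAATTA in 5.50% and MEF2 in 3.44%. The members' surroundings were richer in A and T, as given above, and the part of base composition in these shares was not tested. AP-1 (TGACTCA) was in 4.11% of summits and 3.49% of flanks, with 3.69% over all distal summits. The CTCF consensus was in a single member (0.0563%), with 0.0328% over all. The other strings searched were TGACGTCA (CRE), GCGTGGGCG (EGR), ACAATGG (SOX), ATGCAAAT (POU), CCGGAAG (ETS), GAGGAAGT (PU.1), TGTGGTTT (RUNX), AGGTGTGA (T-box), GGGCGTGG (KLF), GTTGCCAT (RFX) and AGATAAG (for GATA factors). Each of these was in at most 3.32% of the members' summits, the share of the SOX string, which was in 2.68% over all distal summits. TEAD was in 3.55% against 2.97% over all, and forkhead in 3.43% against 2.78%. The ETS and PU.1 strings share letters, and no test was made.

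Inside genes, the members sat in long ones. A coding gene body held 715 members (40.2%), against 67.4% of distal peaks with a neighbour at over 1 kb. Counted by peak, the host, the longest where several overlap, had a median length of 381 kb for the members and 148 kb for that group. The host was at least 500 kb long for 39.3% of the 715 members, against 14.8% in that group. Over all 20807 autosomal coding genes, 541 (2.60%) held at least 1 member. The share was 19.0% for the 2372 genes of 100 kb or more and 66.1% for the 218 genes of 500 kb or more. A long gene offers more room for a peak at 50 kb from the next, so counts by gene group are read against these shares. Of the 541 hosts, 155 (28.7%) had no promoter peak, 243 (44.9%) had no other distal peak in the body and 122 (22.6%) had neither. The same shares over all coding genes were not counted. Counted by peak, the host had a promoter peak for 75.2% of the members inside coding genes. For distal peaks with a neighbour at over 1 kb this was 93.1%. The rule lowers the members' share, because it excludes peaks near a promoter peak.

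The hosts with the most members were Lsamp and Lrp1b, with 8 each, and Macrod2, with 6. Lsamp, 2197 kb long, held 8 intronic members with signals from 2.37 to 3.96. Their values were 2.37, 3.42, 3.34, 2.57, 2.52, 2.37, 3.01 and 3.96 in order along chromosome 16, and 4 were found in pool I (4.06, 4.91, 2.12 and 5.09) and none in pool J. The same gene held 28 other distal peaks and a promoter peak. The strongest member of the genome, just past its end, is not among the 8. Thus the isolated peaks within Lsamp were weak and none was found in both pools.

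Lrp1b, a giant receptor gene of the LDL receptor family, held 8 members over 2058 kb of chromosome 2, with signals of 3.50, 2.80, 1.99, 2.68, 2.93, 2.57, 2.68 and 2.57. One of them was found in both pools, with 5.04 in pool I and 3.01 in pool J, although its signal in the replicated list was the lowest of the 8, at 1.99. Of the rest, 4 were in the pool I list only, 1 was in that of pool J only and 2 were in no pool's list. Macrod2, which encodes an enzyme that removes ADP-ribose from proteins, held 6 members from 2.19 to 5.16. The highest of these, 1460 bp wide, was found in both pools with 6.34 and 3.91.

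Gabrg3, which encodes a γ subunit of the GABA-A receptor, had most of its members in the lists of both pools. Its 5 had signals of 3.37, 3.77, 2.86, 2.97 and 4.07, and 4 were found in both pools, with 4.30, 3.68, 3.06 and 3.89 in pool I and 3.56, 3.90, 2.70 and 4.27 in pool J. Cntn5, a contactin gene of axonal adhesion, held 5 from 2.47 to 3.47, of which 3 were found in both pools and 2 in pool I alone. The 5 in Fhit, a gene at a common fragile site, ran from 2.67 to 3.57, with 2 found in both pools and 3 in neither. Ptprd, Cdh13 and Clstn2 also held 5 each. Hosts with equal numbers of members thus differed in how many both pools held.

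The gene lists of adhesion and synapse biology, which hold many long genes, had the highest counts of hosts. All gene lists here and below were chosen with earlier results of these data known. A high count may therefore be partly built in, and no theme is read from it. Of the 36 autosomal genes listed as synaptic organisers, a list that also holds long neuronal genes of other roles such as Macrod2 and Lrp1b, 21 had a member in the body. Of its 29 genes of 100 kb or more, 21 did, against 19.0% of all genes of that length, and of its 25 genes of 500 kb or more, 20 did, against 66.1%. Lrp1b (8 members), Macrod2 (6) and the receptor phosphatase gene Ptprd (5) led it. The list of immunoglobulin adhesion and guidance genes had 16 of 38, with 16 of its 37 genes of 100 kb or more and 13 of its 16 genes of 500 kb or more, led by Lsamp (8), Cntn5 (5) and the semaphorin gene Sema6d (4). Robo1, a Slit receptor gene of the same list, held 3 members and no other distal peak, and its highest signal was 8.56. Cadherins and protocadherins had 11 of 28, with 11 of 21 of 100 kb or more and 6 of 6 of 500 kb or more, led by Cdh13 (5), Pcdh15 (4) and Cdh12 (3).

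Channels and receptors followed at lower counts. Glutamate receptor genes had 7 of 25, with 7 of 17 of 100 kb or more and 5 of 6 of 500 kb or more, with Grm5 (2) and Gria4 (2) among them. GABA receptor genes had 2 of 17, or 2 of 7 of 100 kb or more, with Gabrg3 (5) ahead. Potassium channel genes had 8 of 26, or 8 of 20 of that length, led by Kcnb2 (2), Kcnma1 (2) and Kcnip4 (1, signal 5.86). Genes listed as forebrain transcription factors, a name not checked for each gene, had 7 of 40, or 7 of 18 of that length. Auts2 (3), Zfhx3 (1) and Npas3 (1) led the list. Every one of these 40 genes had a promoter peak and 31 had other distal peaks in the body. The same shares over all coding genes were not counted, so these 2 counts do not set the list apart. The counts at 100 kb or more lie above the 19.0% of all genes of that length in each of these 4 lists. At 500 kb or more the numbers are small. A member lay in 1 of 1 GABA receptor gene, 3 of 4 potassium channel genes and 4 of 6 genes listed as forebrain transcription factors. Of all genes of 500 kb or more, 66.1% held one, so the forebrain count is near that share. Genes differ in length within that class too, and no test was made.

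Of the 111 autosomal markers in 7 cell type lists, 6 hosted a member (5.41%), against 2.60% of all autosomal coding genes. Of the 32 markers of 100 kb or more, 5 did (15.6%), against 19.0%. Promoter peaks were also counted at the markers. Their share over all coding genes was not counted, so these numbers compare the lists with each other only. They were present at 18 of 18 markers of excitatory neurons, 11 of 18 of interneurons, 14 of 16 of astrocytes, 12 of 15 of oligodendrocytes, 7 of 12 of their precursors, 10 of 16 of microglia and 12 of 16 of endothelial and mural cells. Among genes of other tissues they were present at 0 of 16 Hox, 1 of 13 liver, 3 of 14 muscle and 2 of 15 lymphoid genes. A member lay in the body of 1 excitatory marker, Foxp2 (signal 3.08), 2 interneuron markers, Erbb4 and Reln (2 members each, up to 2.75 and 2.71), and 1 astrocyte marker, Gpc5 (2 members, up to 3.17). Among the other cell classes there was 1 in the oligodendrocyte marker Ermn (2.78) and 1 in the endothelial marker Erg (2.47). Markers of oligodendrocyte precursors and microglia, activity-regulated genes and the Hox, liver, muscle and lymphoid lists held none. Among these, 4 of the 12 precursor markers, 3 of the 16 microglia markers and 1 of the 20 activity-regulated genes were 100 kb or longer. One precursor marker (1 of 12) was 500 kb or longer. Of the genes of other tissues, 0 of 16 Hox, 1 of 13 liver, 2 of 14 muscle and 2 of 15 lymphoid genes were 100 kb or longer. The tissue is a mixture of cells, and a weak peak from a few cells cannot be told apart from weak acetylation in many.

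**Figure D5:**
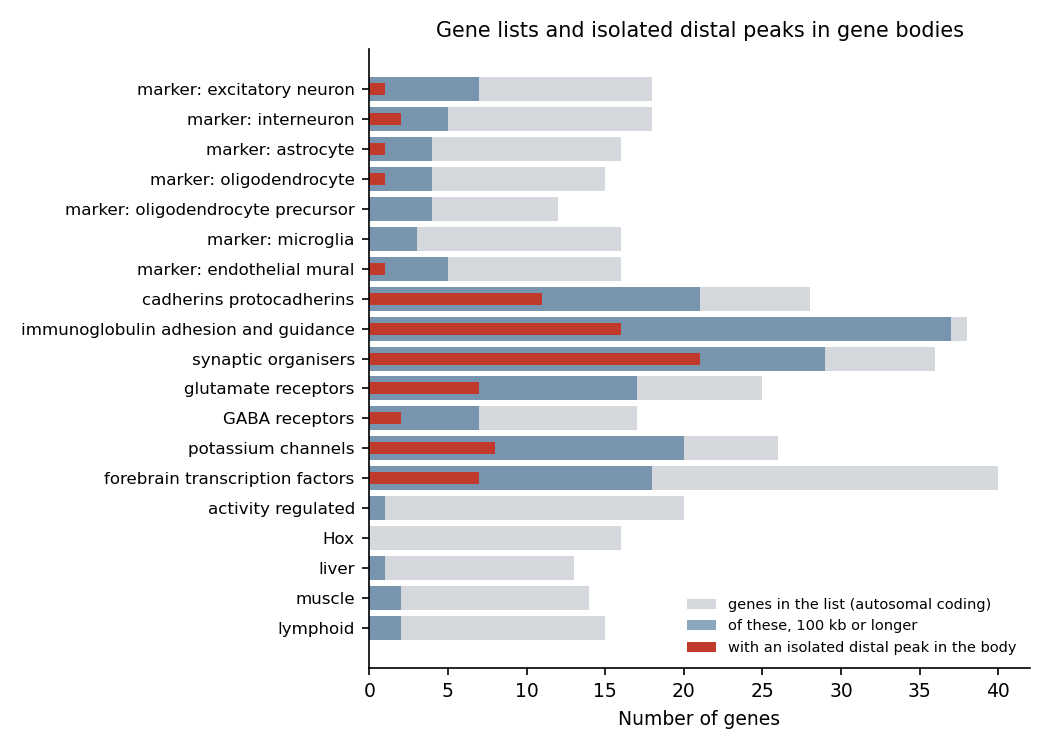
Number of genes (x) in each of 19 gene lists (y), with all autosomal coding members of the list in grey, those of 100 kb or more in blue and those with an isolated distal peak in the body in red. The red bars are longest for synaptic organisers (21 of 36), immunoglobulin adhesion and guidance genes (16 of 38) and cadherins (11 of 28), lists with many long genes. The lists were chosen with earlier results of these data known.

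By the nearest coding TSS in place of the host, the members were spread over 1306 genes. At least 3 members shared a nearest gene for 95 genes, and at least 5 for 13. Lsamp and Lrp1b again had 8 each, followed by the cadherin gene Cdh8 with 7 and by Sema6d, Lrrc4c and Ptprd with 6. Robo1 and Zeb2, a repressor gene of neuronal development, had 5 each, with highest signals of 8.56 and 6.67.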

How the data were processed

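H3K27ac ChIP-seq of 4 samples (2 pools, 2 technical libraries each) was deposited as 4 narrowPeak lists on mm10, per the labels: a replicated and a pseudoreplicated list from both pools, and 1 pseudoreplicated list for each pool. The authors deposited for each peak a signal, a −log10 q (and −log10 p, not used) and a summit offset. The aligner, peak caller, signal normalization and read depth were not given in the sources used here, so no interval for read counting was made. The libraries of a pool share 1 alignment, so values exist per pool.

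The members were found with Python 3.11.15, pandas 2.3.3 and NumPy 2.4.6, with the distance code tested on simulated data. Gaps were measured between peak edges in the replicated list, and the X chromosome was left out. GENCODE vM21 basic gave 34568 coding and long non-coding genes and 55728 TSSs, and GRCm38 the sequence and its soft-masking. A peak that overlapped any exon counted as exonic, and otherwise one that overlapped any gene as intronic. Lists were matched by an overlap of at least 1 bp. A member found in a pool took the highest signal it overlapped there. Intervals are exact binomial (SciPy 1.17.1) and treat peaks as independent, which neighbours are not.

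The members and the gene lists were chosen with earlier results of these data known. No test was made, since there is 1 group and the members were chosen on the same peaks. Named were the 12 members with the highest signal, the 8 most remote, the 6 widest, the 6 hosts with the most members and up to 3 genes per list with the most members, ties going to the higher signal. A few items that this rule names are not reported here. Alternatives were other isolation distances, TSS windows and overlaps, a −log10 q of at least 5, the other 3 lists, the X chromosome, a 400 bp summit window and 2 chosen after seeing the data: joining peaks within 1 kb, and leaving out members at a TSS of a fuller annotation. Control libraries and signal tracks were not used here.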

Additional observations from a re-analysis of the deposited data

How the results depend on the processing

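No paired analysis was possible because there is 1 group and no comparison between groups. The number of members was 3552 with no other peak within 25 kb and 734 within 100 kb. At these 2 distances the intronic share was 47.3% and 33.0%, the median TSS distance 89.8 and 201 kb, and at 25 kb the median GC content was 46.5%. With peaks of −log10 q of at least 5 alone, 1594 peaks were isolated, with a median signal of 4.27, a median width of 716 bp, 74.5% in both pools, a TSS distance of 115 kb and a GC content of 46.5%. In the pseudoreplicated list of both pools, 30.0% were found in both pools and the TSS distance was 130 kb. The lists of single pools gave 1640 to 1756 isolated peaks with a median signal of 3.38 to 3.89, a width of 429 to 596 bp, an intronic share of 38.1% to 45.4%, a TSS distance of 124 to 129 kb and a GC content of 44.5% to 46.0%. Of the isolated peaks of the pool I list, 42.9% overlapped a member, and of those of pool J, 38.3%. There were 2 alternatives chosen after seeing the data. Joining peaks within 1 kb gave 2387 isolated peaks, with a median signal of 3.36, a median width of 559 bp and 43.1% in both pools. Leaving out peaks at a TSS of a fuller annotation gave a TSS distance of 142 kb. The difference between members and all other distal peaks kept its direction in all 66 values recomputed over 6 measures: signal, width, share in both pools, intronic share, TSS distance and GC content. The rule itself bears on TSS distance and intronic share in every setting. Differences from the distal peaks with a neighbour at over 1 kb, whose median signal of 3.17 equals the members', were not recomputed. Why the values moved was not tested. The read depth is unknown, so the limit of detection for weak members could not be set.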
